A study of Mus musculus with 46 samples.

Results

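The immunity-related GTPases (IRGs) were followed across 46 bulk RNA-seq samples of the MC-38 mouse colon carcinoma model. The members are the 9 rows of the expression table that carry the symbols Irgm1, Irgm2, Igtp, Iigp1, Tgtp1, Tgtp2, Ifi47, Gm12250 and Gm12185, out of 48795 genes in all. They were chosen by family name, with earlier results of these data known at the time of the choice. Each value is an FPKM, a fragment count divided by the gene's transcript length and by the sample's total of mapped fragments, so that levels can be set side by side between genes.

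The samples were 3 cultures of MC-38 cells, 3 tumors labelled baseline, and 4 groups of 5 tumors from wild-type mice given the PD-1 antibody muDX400 or its isotype control. The cultures and the baseline tumors are listed as wild-type too, with no treatment. The antibody groups had received 1 dose (day 4 of treatment in the labels, day 11 post-tumor implant in the methods) or 2 doses (day 8 and day 15, respectively) of 5 mg/kg. Another 10 tumors came from mice labelled PD-1cKO (ROSA26creERT2 Pdcd1 fl/fl, in which tamoxifen-activated Cre removes exons 2 and 3 of Pdcd1 and Cre is expressed in all cells) and 10 from littermate controls labelled WT. The methods describe both Pdcd1 fl/fl mice without Cre and littermate wild-type mice, and do not say which gave these 10 tumors. Mice of the PD-1cKO and WT groups had received tamoxifen at 40 mg/kg on 5 consecutive days. Their tumors are placed at day 28 in the labels and at day 22 in the methods. The mice were females of 8 to 10 weeks, on the C57BL/6NTac background in the antibody study.

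IRGs are large GTPases that cells make in response to interferon-γ (IFN-γ), the cytokine of activated T and NK cells. Effector IRGs, known as GKS proteins after the sequence of their nucleotide-binding loop, load onto the membrane of vacuoles that hold intracellular parasites or bacteria and break it. Regulatory IRGs, or GMS proteins, hold the effectors in the GDP-bound state on the cell's own membranes, and both cooperate with guanylate-binding proteins (GBPs) and with the ATG8 conjugation machinery of autophagy. Irgm1, Irgm2 and Igtp (Irgm3) are the GMS members. Iigp1 (Irga6), Tgtp1 and Tgtp2 (both Irgb6), Ifi47 (Irgd) and Gm12250 (Irgb10) are effectors, and RefSeq lists Gm12185 as Irgb2b1, a tandem IRG of the same branch.

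Of the 9 genes, 8 lie in 2 clusters on chromosome 11 and Iigp1 lies on another chromosome (GRCm38, GENCODE M21). Several members are near-copies of each other or overlap, which limits how 50-base reads could be assigned. Of the 50-base stretches in the annotated transcripts, 81.2% of those of Tgtp1 and 86.6% of those of Tgtp2 occur also in another gene, almost all in each other, so that the split between these 2 genes is uncertain. The share was 19.5% for Gm12185, 11.8% for Igtp and 7.8% for Irgm2, and at most 4.8% for the other 4 genes. Gm12185 overlaps Tgtp1, Irgm2 overlaps Igtp, and Ifi47 overlaps Olfr56. Gm12250 is annotated as a processed pseudogene in GENCODE and as protein-coding in RefSeq.

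The promoters of the 8 members on chromosome 11 are shown because IFN-γ acts on such genes through 2 known kinds of DNA element, the GAS element and the ISRE, the latter bound by IRF1. Each sequence covers bases -110 to -1 before the RefSeq start of the gene (GRCm38.p6), 5′ to 3′ on the strand of the gene. Capitals mark matches to the GAS motif TTCNNNGAA and to the ISRE core, which was searched as 2 copies of GAAA with any 2 bases between them, on either strand. No sequence is given for Iigp1.
Irgm2: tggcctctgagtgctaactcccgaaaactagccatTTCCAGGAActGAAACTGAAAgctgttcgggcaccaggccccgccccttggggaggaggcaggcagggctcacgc
Igtp: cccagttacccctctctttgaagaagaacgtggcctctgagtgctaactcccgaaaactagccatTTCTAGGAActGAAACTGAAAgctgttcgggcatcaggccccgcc
Tgtp1: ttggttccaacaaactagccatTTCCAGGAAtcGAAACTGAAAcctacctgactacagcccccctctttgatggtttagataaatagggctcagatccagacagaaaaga
Tgtp2: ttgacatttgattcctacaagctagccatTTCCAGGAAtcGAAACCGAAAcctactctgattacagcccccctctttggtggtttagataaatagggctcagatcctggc
Gm12185: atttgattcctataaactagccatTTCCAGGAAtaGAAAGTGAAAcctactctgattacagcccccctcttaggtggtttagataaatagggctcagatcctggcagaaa
Gm12250: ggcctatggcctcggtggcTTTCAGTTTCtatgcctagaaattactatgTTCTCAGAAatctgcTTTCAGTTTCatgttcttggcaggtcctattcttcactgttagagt
Irgm1: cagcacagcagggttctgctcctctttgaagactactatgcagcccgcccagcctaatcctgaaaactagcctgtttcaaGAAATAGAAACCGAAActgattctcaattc
Ifi47: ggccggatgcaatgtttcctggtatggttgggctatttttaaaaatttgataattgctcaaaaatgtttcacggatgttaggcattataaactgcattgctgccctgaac
The stretches are chr11:58214867-58214976 (plus strand) for Irgm2, chr11:58199446-58199555 (plus) for Igtp, chr11:48992247-48992356 (minus) for Tgtp1 and chr11:49064213-49064322 (minus) for Tgtp2. They are chr11:48927183-48927292 (minus) for Gm12185, chr11:58183733-58183842 (plus) for Gm12250, chr11:48871421-48871530 (minus) for Irgm1 and chr11:49076477-49076586 (plus) for Ifi47.

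Counted over the whole RefSeq promoter of 300 bases, the ISRE core was present in 7 of the 8 IRG promoters and in 3.44% of all 32851 promoters. The GAS motif was present in 6 of 8 and in 8.30% of all. Both motifs, in any arrangement, were present in 6 of 8 and in 149 (0.454%) of all promoters. In Irgm2, Igtp, Tgtp1, Tgtp2 and Gm12185 the GAS motif was followed 2 bases later by the ISRE core. This combined run occurred in 5 promoters of the whole set, namely these 5. It was searched in the order and spacing that these 5 hold, so this count is not a test. The flanking bases are also alike between these promoters, as between copies of one gene, so the 5 are not independent cases. Gm12250 held both motifs in another arrangement, with the ISRE core on the opposite strand on both sides of the GAS motif. Irgm1 held 2 overlapping ISRE cores and no GAS motif, and Ifi47 held no match in the 300 bases. Other starts of a gene were not searched, and Ifi47 has 5 annotated transcripts. For several members, among them Gm12250 and Gm12185, the RefSeq start lies apart from the GENCODE start of the gene. A match describes the letters only.

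The files hold FPKM and no counts, so the depth behind each value is unknown and the precision given is the spread between tumors. Short noncoding RNAs took 30.2% to 66.5% of the summed FPKM in the tamoxifen study and at most 0.0746% elsewhere, so levels set across the 2 studies are less comparable than levels within a study. In 1 isotype tumor of the 1-dose group (tumor 1), mitochondrial genes took 54.6% of the summed FPKM, against at most 7.65% in any other sample. Within the tamoxifen study, tumors 4 and 8 of those labelled PD-1cKO had the highest short noncoding shares. Pdcd1 was 3.30 ± 1.46 FPKM (SD, n = 10) in WT tumors and 9.61 ± 4.51 (n = 10) in tumors labelled PD-1cKO. That value covers the whole gene and not exons 2 and 3, and it does not check the deletion. Cultured cells had Cd3d, Cd3e, Adgre1 and Ifng listed at 0 in all 3 cultures, and Krt8, Krt18, Epcam and Cdh1, markers of epithelium, summed to 0.572 to 0.742 FPKM there.

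MC-38 cells in culture expressed few IRG transcripts, and these were mostly of 1 gene. Irgm1 was at 13.9, 12.7 and 15.4 FPKM in the 3 cultures, followed by Ifi47 at 4.35, 4.06 and 4.92 and Igtp at 2.50 to 3.36. The effector genes Tgtp1 (0.126, 0.222 and 0.0583 FPKM), Gm12250 (0.0284, 0.111 and 0.0589) and Gm12185 (0.0505, 0.0631 and 0.0814) were close to 0. The 9 genes together summed to 23.2 to 27.3 FPKM, of which the 3 GMS genes held 70.9% to 74.3%. In the 5 isotype tumors of the 2-dose group the sum was 199.9 to 594 FPKM, and the GMS share was 38.7% to 45.0%. Every tumor of every group lay above every culture for each of the 9 genes.

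All 9 IRGs were higher in these isotype tumors than in culture by limma with Benjamini-Hochberg adjustment, where a call needs both an adjusted p below 0.01 and a 2-fold difference. Of the 15199 genes tested 14.2% were called higher, and 26.3% had isotype tumors above all cultures. The log2 fold changes of FPKM + 0.1 ran from 2.20 ± 0.24 (SE, adjusted p = 5.80e-05) for Irgm1 to 6.60 ± 0.30 for Gm12250 (adjusted p = 1.49e-07) and 6.74 ± 0.44 for Tgtp1 (adjusted p = 1.86e-06). The median of the 9 was 4.24, against -0.11 over all genes tested. The added 0.1 FPKM lowers the change of the genes near 0 in culture, and with 1 FPKM added the highest value was 4.79. Ptprc, carried by all leukocytes, was 0 to 0.0078 FPKM in culture and 10.5 to 25.9 in the isotype tumors. In bulk tissue, a change in the number of cells of a type and a change in RNA per cell cannot be told apart. How far leukocytes carried the IRG transcripts of the tumors was not tested. Of 11 genes of IFN-γ input and signaling, 7 rose from culture to tumor, among them Irf8 (log2 fold change 4.66), Ifng (3.79) and Irf9 (2.42).

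**Figure D1:**
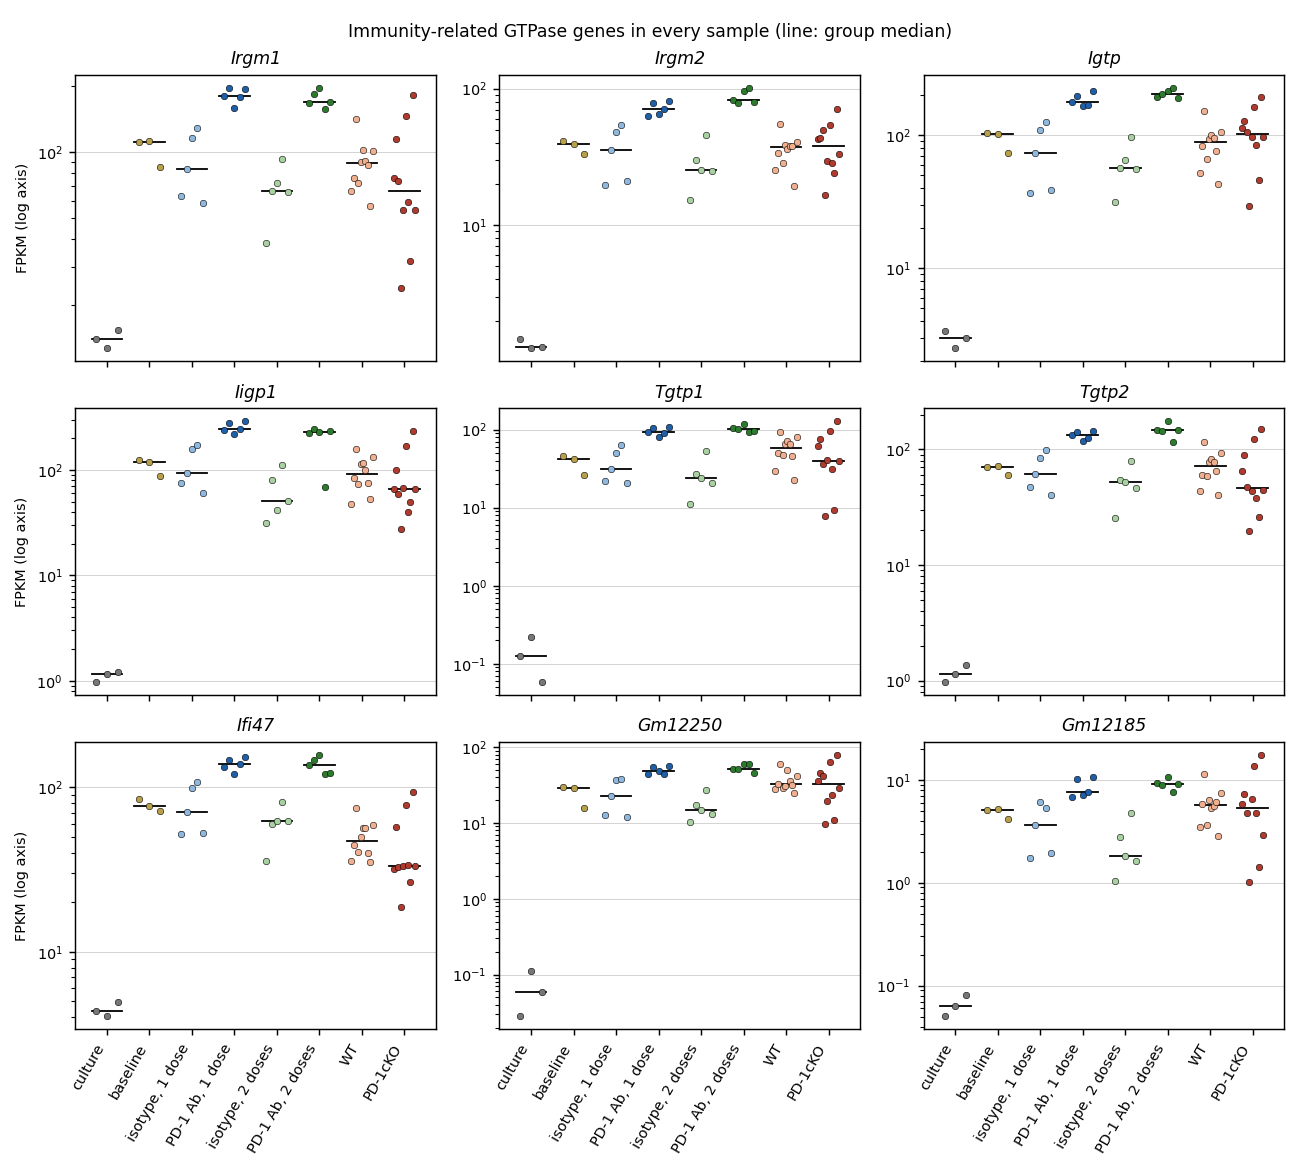
FPKM (log axis) of each IRG gene in every sample by group, 1 point a sample, with a line at the group median. The 3 cultures lie below all tumors in each panel, both PD-1 Ab groups have the highest medians, and 1 tumor of the 2-dose PD-1 Ab group stands far below the other 4 for Iigp1, at 69.0 FPKM.

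Ordered by their medians, the same groups stood at both ends of the order for each gene, while the places between them varied. Over the genes, the baseline group ranged from place 3 to 5 and the WT group from 3 to 6. The group labelled PD-1cKO ranged from 4 to 7, and the isotype groups from 4 to 6 (1 dose) and from 5 to 7 (2 doses). The PD-1 Ab groups of 1 and 2 doses held the first 2 places for 9 of 9 genes and overlapped each other in each. The group in the third place was the baseline or the WT group. Its range was separate from that of the group in second place for Irgm1, Irgm2, Igtp, Tgtp2 and Ifi47. The share of all genes with this order or this separation was not counted. From the third to the seventh place, all neighbouring groups overlapped for every gene. Groups farther apart in the order were not compared in this way, and an overlap of ranges is not a test of a difference. Culture was last for 9 of 9 genes. For Ifi47 the medians of the WT group (47.2 FPKM) and of the group labelled PD-1cKO (33.3 FPKM) ranked sixth and seventh. The WT group took the third place for Tgtp1, Tgtp2, Gm12250 and Gm12185.

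After the first dose, every IRG gene stood higher in all PD-1 Ab-treated tumors than in all isotype tumors, but none passed the test. Igtp, the regulator also known as Irgm3, was at 178, 199, 165, 170.0 and 213 FPKM in the PD-1 Ab tumors and at 37.0, 73.6, 109, 125 and 39.0 in the isotype tumors. The groups did not overlap, and the isotype tumors were the more variable, with tumors 3 and 4 high and tumors 1 and 5 low for each of the 9 genes. Irgm1, a regulator that also acts on mitochondria and lysosomes, was at 180.4, 196, 159, 179 and 196 FPKM after PD-1 Ab and at 63.1, 84.2, 116, 129 and 58.8 after isotype. Iigp1, the best studied effector, was at 239, 280.1, 219, 243 and 288 FPKM after PD-1 Ab and at 75.9, 93.6, 157, 171 and 60.7 after isotype. For these genes as well, the lowest PD-1 Ab tumor lay above the highest isotype tumor.

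This separation held for 9 of 9 IRGs and for 3.59% of the 14556 genes tested. The log2 fold changes ranged from 0.91 ± 0.23 (Ifi47, adjusted p = 0.278) to 1.48 ± 0.30 (Tgtp1, adjusted p = 0.183), with a median of 1.20 against 0.26 over all genes. No gene at all was called (0% of those tested), and 895 genes had an unadjusted p under 0.05. With median-of-ratios scaling, which brings the median of all genes to 0.01, the IRG values were 0.66 to 1.23. Without isotype tumor 1, the tumor with the high mitochondrial share, they were 0.79 to 1.33 with adjusted p of 0.0531 to 0.117, and no IRG gene was called. Sample identifiers were grouped by ranges of close numbers into runs, which no label names as batches. All 5 PD-1 Ab tumors and 2 isotype tumors fell in 1 such run. Within it, Igtp was at 39.0 and 125 FPKM in the isotype tumors, against 165 to 213 in the PD-1 Ab tumors.

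**Figure D2:**
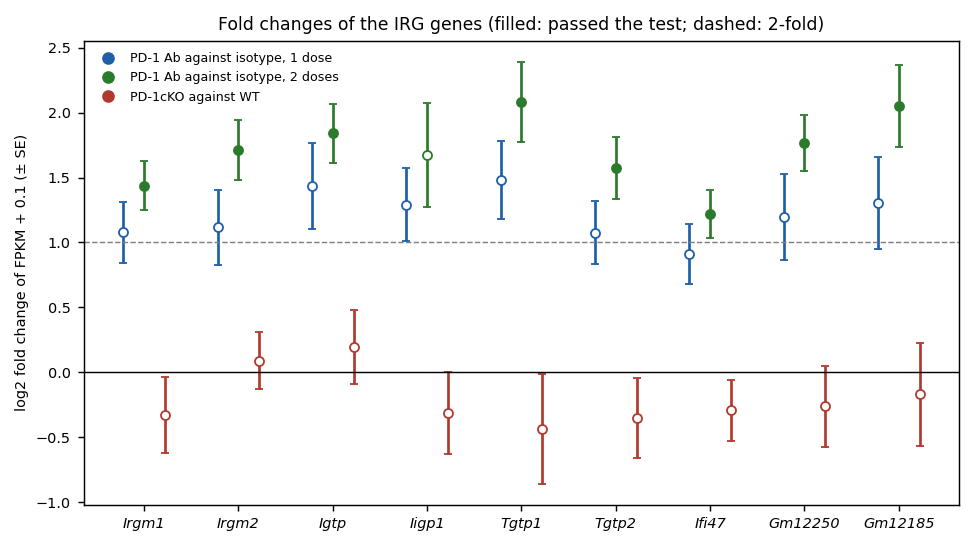
Log2 fold change of FPKM + 0.1 with its SE for each IRG gene in the 1-dose, 2-dose and PD-1cKO comparisons, with filled points for genes called by limma. After 2 doses 8 genes are filled, after 1 dose the values lie between 0.91 and 1.48 and none is filled, and for PD-1cKO against WT they lie around 0, from -0.43 to 0.20.

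After the second dose, 8 of the 9 IRGs rose in PD-1 Ab-treated tumors by 2.33-fold to 4.23-fold, and the ninth, Iigp1, missed the threshold. Among the 15062 genes tested 5.03% were called higher. Igtp was at 195, 204, 213, 228 and 190 FPKM in the PD-1 Ab tumors and at 31.3, 56.4, 64.8, 96.7 and 56.1 in the isotype tumors (log2 fold change 1.84 ± 0.23, adjusted p = 0.000885). The lowest PD-1 Ab tumor lay at about 2 times the highest isotype tumor, isotype tumor 4, which was the highest of its group for each of the 9 genes. Tgtp1, whose reads are shared with Tgtp2, changed most, at 104, 101, 119, 92.7 and 95.8 FPKM after PD-1 Ab and at 11.2, 26.9, 24.2, 53.8 and 20.5 after isotype (2.08 ± 0.31, adjusted p = 0.00150). Ifi47 changed least, at 138, 147, 157, 121 and 123 FPKM after PD-1 Ab and at 35.5, 60.2, 62.7, 81.8 and 62.4 after isotype (1.22 ± 0.18, adjusted p = 0.00159). In both genes all PD-1 Ab tumors exceeded all isotype tumors.

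The regulators Irgm1 (1.44 ± 0.19, adjusted p = 0.00101) and Irgm2 (1.71 ± 0.23, adjusted p = 0.00106) and the effectors Tgtp2 (1.57 ± 0.24, adjusted p = 0.00162), Gm12250 (1.76 ± 0.21, adjusted p = 0.000885) and Gm12185 (2.05 ± 0.32, adjusted p = 0.00172) rose in the same way. The groups did not overlap for 8 of the 9 IRGs, which was the case, in this direction, for 9.23% of all genes. The summed FPKM of the family was 954 to 1257 in the PD-1 Ab tumors, with a GMS share of 39.8% to 51.0%, and 199.9 to 594 in the isotype tumors.

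Iigp1 was at 225, 243, 230.1, 69.0 and 231 FPKM in the PD-1 Ab tumors of the 2-dose group and at 31.5, 80.8, 42.1, 112 and 50.5 in the isotype tumors. PD-1 Ab tumor 4 fell within the isotype range and the other 4 lay at more than 2 times the highest isotype tumor. The log2 fold change was 1.67 ± 0.40 (adjusted p = 0.0133), just short of the threshold of 0.01, and without tumor 4 it was 2.02 (adjusted p = 0.00367). It was also called in a fit over all tumor groups (adjusted p = 0.00485) and without isotype tumor 4 (1.92, adjusted p = 0.00797). Tumor 4 was also the lowest of the group for Irgm1 (157 FPKM against 169 to 198), Tgtp1 (92.7 against 95.8 to 119), Tgtp2 (117 against 144 to 174), Ifi47 (121 against 123 to 157) and Gm12185 (7.59 against 9.00 to 10.6), by smaller margins and above all isotype tumors. Its Igtp (228 FPKM) and Irgm2 (102 FPKM) were the highest of the group. Its GMS share of the family was 51.0%. Ptprc was 20.9 FPKM in tumor 4 and 36.4 to 74.2 in the other 4, while the summed T cell markers (129 FPKM, range of the group 44.1 to 177) and macrophage and monocyte markers (3653 FPKM, range 1554 to 4082) were within the range of the others. Gm4951, another IRG of chromosome 18, was also lowest there, at 8.09 FPKM against 21.5 to 28.4, and 9930111J21Rik2, a tandem IRG of chromosome 11, was at 4.63 against 12.5 to 16.2. The part of leukocyte content in these values was not tested.

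The interaction between dose and treatment did not pass the test for any IRG gene. The second-dose change exceeded the first-dose change by 0.31 ± 0.30 (Ifi47) to 0.75 ± 0.49 (Gm12185) on the log2 scale, with adjusted p of 0.627 to 0.748, and 0% of 15289 genes were called, with 1182 at an unadjusted p under 0.05. The PD-1 Ab groups themselves overlapped for every gene, with 185 ± 20.3 FPKM for Igtp after 1 dose and 206 ± 15.2 after 2 (SD, n = 5 each). The isotype group of 2 doses had lower medians than that of 1 dose for all 9 genes, with log2 differences of -0.85 to -0.24 that did not pass the test (0% of 14445 genes called and 996 at an unadjusted p under 0.05). Baseline tumors were at 0.41 to 1.15 relative to the 2-dose isotype tumors on the same scale, with adjusted p of 0.176 to 0.494, and 0.595% of 14967 genes were called there. The isotype tumors of 2 doses serve in both of the last comparisons, and as controls of the second dose, so these results share samples.

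Among the genes known to work with the IRGs, the other IFN-γ-inducible GTPases also rose after the second dose. Of 11 GBPs, which act on the same vacuoles, 9 rose, among them Gbp2b (log2 fold change 2.95 ± 0.38, adjusted p = 0.000969), Gbp10 (2.75 ± 0.46, adjusted p = 0.00258), Gbp11 (2.51 ± 0.47, adjusted p = 0.00443) and Gbp4 (2.25 ± 0.33, adjusted p = 0.00148), and the median of the list was 1.88. Of 11 genes of IFN-γ input and signaling, 3 rose, among them Ifng itself (2.52 ± 0.34, adjusted p = 0.00106) and the myeloid factor Irf8 (1.58 ± 0.16, adjusted p = 0.000806), and the median of the list was 0.62. Irf1 was at 0.62 ± 0.11 with an adjusted p of 0.00349 and did not reach the 2-fold limit.

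No gene of the membrane machinery was called, where 5.3% of all 15062 genes were called in either direction. At that share, lists of this size hold few calls or none. None of 10 genes of the ATG8 conjugation machinery, through which GMS proteins and effectors are directed to the right membranes, passed the test in either direction, with log2 fold changes of -0.39 to 0.28 and a median of 0.0033. None of 6 ubiquitin and adaptor genes passed it (median 0.07). The largest value among them was 0.91 ± 0.17 for Trim21, a ubiquitin ligase (adjusted p = 0.00416, under 2-fold). Of the further IRG genes, 5 were tested and none passed, although 9930111J21Rik1 (2.09 ± 0.50, adjusted p = 0.0130), F830016B08Rik (1.70 ± 0.73, adjusted p = 0.105), Gm4951 (1.63 ± 0.39, adjusted p = 0.0127) and 9930111J21Rik2 (1.61 ± 0.56, adjusted p = 0.0539) had values like those of the members. Irgq, an IRG-like gene that is not known to respond to interferon, was at 0.15 ± 0.13 (adjusted p = 0.427). Irgc1 was below the filter on low values.

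Markers of T cells and of macrophages and monocytes rose with the IRGs in this comparison. All 7 T cell markers and all 7 macrophage and monocyte markers rose, with medians of 2.52 and 1.46 on the log2 scale. Their summed level was 44.1 to 177 FPKM against 10.8 to 23.0 in isotype tumors for T cells, and 1554 to 4082 against 939 to 1279 for macrophages and monocytes, and no marker of either list was at 0 in all tumors of a group. In the first-dose comparison the same lists had medians of 1.66 and 0.83, with 0 of 7 called in each. Other lists were mixed after the second dose. Called higher were 2 of 5 dendritic cell, 1 of 4 NK cell, 1 of 3 endothelial, 1 of 3 adipose (median 2.90) and 1 of 3 skeletal muscle markers. None of the fibroblast, B cell or epithelial markers was called, nor was Ptprc (1.42). Of 2 neutrophil markers tested, 1 was called lower (median -1.81). The part of any cell type in the IRG change was not tested.

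**Figure D3:**
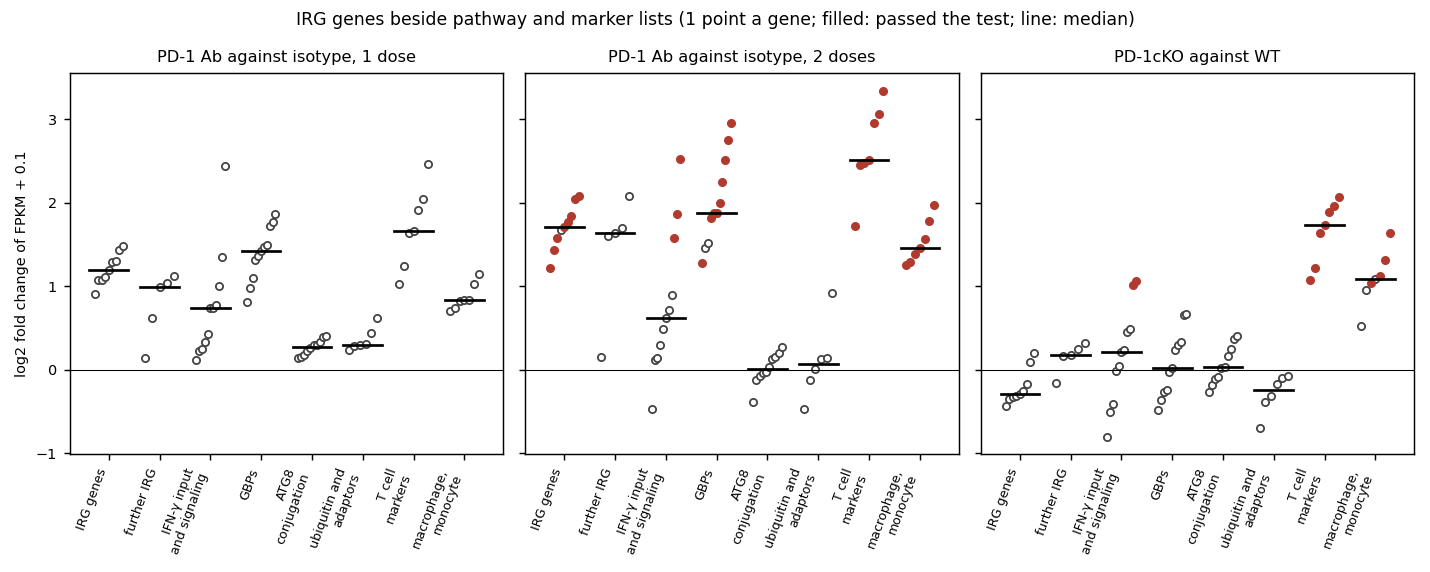
Log2 fold change of FPKM + 0.1 for the IRG genes and for the genes of 7 lists, 1 point a gene, in the 1-dose, 2-dose and PD-1cKO comparisons, with filled points for called genes and a line at each list's median. After 2 doses the IRG genes (median 1.71), GBPs (1.88) and T cell markers (2.52) lie above 0, and ATG8 conjugation genes lie around 0, whereas for PD-1cKO the T cell markers are called (median 1.74) and no IRG or GBP gene is.

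In tumors labelled PD-1cKO, no IRG gene passed the test against WT. In the 10 tumors labelled PD-1cKO, Igtp had a lowest value of 29.4, a median of 102 and a highest value of 193 FPKM, against 43.1, 88.6 and 151 in the 10 WT tumors. For Iigp1 the corresponding values were 27.4, 65.3 and 232 FPKM against 47.6, 91.7 and 157. For Ifi47 they were 18.8, 33.3 and 93.4 FPKM against 35.0, 47.2 and 74.8. The groups overlapped for every gene (0.643% of all genes had tumors labelled PD-1cKO above all WT tumors). The tumors labelled PD-1cKO reached both lower and higher than the WT tumors in 9 of 9 genes. The share of all genes with such a wider range was not counted, so this is not shown to be particular to the IRGs. Tumors 6 and 9 of those labelled PD-1cKO were the highest for every IRG gene and tumors 4 and 8 the 2 lowest for 8 of the 9, the exception being Iigp1.

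The log2 fold changes ranged from -0.43 ± 0.42 (Tgtp1, adjusted p = 0.404) to 0.20 ± 0.28 (Igtp, adjusted p = 0.579), with a median of -0.29 against -0.20 over all genes. None of the 9 genes was called, while 8.07% of 15075 genes were called in this comparison. A value that misses the threshold does not show that the levels were alike, and the log2 fold change ± 2 SE ran from -0.35 to 0.53 for Irgm2, the narrowest, and from -1.28 to 0.41 for Tgtp1, the widest. With median-of-ratios scaling, in which the median of all genes was -0.04, the IRG values were -0.27 to 0.36. Without tumors 4 and 8, the 2 with the highest short noncoding share (a choice made after seeing the data), they were -0.09 to 0.53 and none was called.

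The identifiers of the tamoxifen study fell into 3 runs that almost coincide with the groups, with 7 tumors labelled PD-1cKO alone in the first. In the second run 1 such tumor stood beside 9 WT tumors, with Igtp at 45.9 FPKM against 43.1 to 151. In the third, 2 such tumors at 97.6 and 193 FPKM stood beside 1 WT tumor at 105. With the run as a covariate all 9 IRG values were negative, -1.46 to -0.16, with adjusted p of 0.115 to 0.778, and no gene of the table was called. The runs hold too few tumors of both groups to tell genotype and run apart.

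T cell markers were nevertheless higher in tumors labelled PD-1cKO, with 7 of 7 called (median 1.74). Of the macrophage and monocyte list 4 of 7 were called (median 1.09). Ifng (1.02 ± 0.27, adjusted p = 0.00692) and Irf8 (1.06 ± 0.14, adjusted p = 0.000414) rose as well. Irf1 (0.05 ± 0.19, adjusted p = 0.846) did not pass, nor did any of the 11 GBPs, whose median was 0.02. The extremes were Gbp10 at 0.67 ± 0.42 (adjusted p = 0.189) and Gbp3 at -0.48 ± 0.34 (adjusted p = 0.242). The ATG8 conjugation list (0 of 10 called, median 0.03), the ubiquitin and adaptor list (0 of 6, median -0.24) and the further IRG genes (0 of 5, median 0.17) held no call either. At the 8.07% called over all genes, lists of this size hold few calls or none. In the 2 tumors with the lowest IRG values, tumors 4 and 8, Cd8a was high (18.5 and 25.0 FPKM, where the group's range was 5.92 to 25.0) and Gapdh low (238 and 167 FPKM, against 314 to 753 in the other 8).

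The difference between the 2-dose antibody change and the PD-1cKO change was tested directly. It was positive for each IRG gene, from 1.51 ± 0.37 (Ifi47, adjusted p = 0.0520) to 2.51 ± 0.67 (Tgtp1, adjusted p = 0.0743) on the log2 scale. The adjusted p was lowest for Irgm2 (1.62 ± 0.37, adjusted p = 0.0338) and Gm12250 (2.02 ± 0.49, adjusted p = 0.0458), and none of the 9 passed 0.01. Of 16404 genes 0.0914% were called. Of 11 GBPs, 1 was called, Gbp2b (3.23 ± 0.58, adjusted p = 0.00674), and the median of the list was 1.86. The T cell list had a median of 1.17 and the macrophage and monocyte list 0.25, with no call in either. Antibody and genotype, day, tamoxifen and library make-up differ together between the 2 studies and cannot be told apart here.

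**Figure D4:**
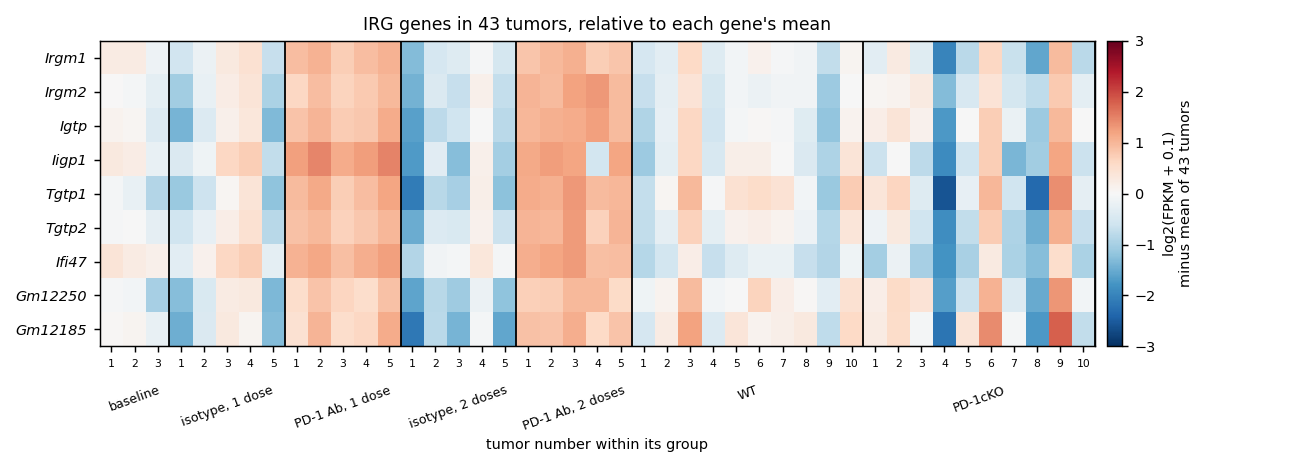
Log2(FPKM + 0.1) of each IRG gene (rows) in the 43 tumors (columns, by group and tumor number), minus the gene's mean over the 43 tumors, with red above and blue below it. In 27 of the 43 tumors all 9 genes lie on the same side of their means. PD-1 Ab tumors are red in all 9 genes, except Iigp1 in tumor 4 of the 2-dose group, and 16 tumors have both colors.

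Within groups the 9 genes rose and fell together from tumor to tumor. Over the 43 tumors the 36 pairs of IRGs had Pearson correlations of log2(FPKM + 0.1) from 0.63 to 0.98 with a median of 0.89. With each group centred on its mean they were 0.78 to 0.98 with a median of 0.91. The lowest pooled value was that of Ifi47 and Gm12250 (0.63 over all tumors and 0.88 within groups). These values are descriptions over tumors that share groups, libraries and, for Tgtp1 and Tgtp2, reads. No correlations between pairs of other genes are given beside them. The short noncoding share differed between tumors of the tamoxifen study (30.2% to 66.5% of the summed FPKM), and its part in these correlations was not tested.

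Among the 13228 genes that averaged 1 FPKM or more over the tumors, the 9 genes most like the mean of the 9 IRGs were ranked by Pearson's r over the 43 tumors. They were Gbp6 (r = 0.95), Gbp3 (0.93), Gbp4 (0.93), Gm4841 (0.93), Apol10b (0.93), Gbp5 (0.90), Herc6 (0.89), Serpina3f (0.89) and Gm4951 (0.88). Within groups their r was 0.81 to 0.96, highest for Gbp3 and lowest for Gm4951. Ifng was not among them.

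**Figure D5:**
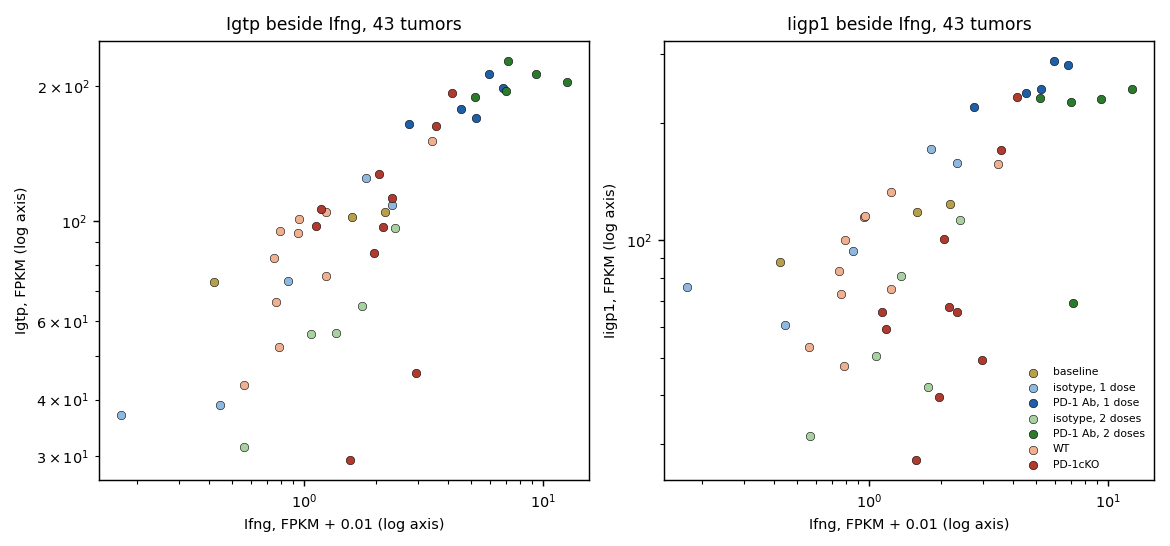
FPKM of Igtp (left) and Iigp1 (right) against Ifng (FPKM + 0.01) in the 43 tumors, both axes on a log scale, colored by group. The PD-1 Ab groups have the highest medians of Ifng and of both genes, and a relation over all 43 tumors was not tested. The 2 tumors labelled PD-1cKO that are lowest in Igtp (29.4 and 45.9 FPKM) have Ifng at 1.55 and 2.94 FPKM, and PD-1 Ab tumor 4 of 2 doses is the lowest of its group for Iigp1 (69.0 FPKM).

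The relation to Ifng was examined within the 2 groups of 10 tumors, as 18 relations adjusted together by the Benjamini-Hochberg method with 2-sided permutation tests. Short noncoding RNAs took 30.2% to 54.6% of the summed FPKM in WT tumors and 31.1% to 66.5% in those labelled PD-1cKO. All genes of a sample share 1 scaling, and the part of this library make-up in the relation was not tested. In WT tumors (n = 10), Pearson's r of log2 values was 0.68 to 0.88 over the 9 genes with permutation p adjusted to 0.00477 to 0.0576, under 0.05 for 8 of them. Spearman's rho was 0.71 to 0.89, with permutation p adjusted to 0.0128 to 0.0553. Without the 2 tumors farthest from the median of Ifng, which also narrows the range of Ifng, r was 0.32 to 0.66. In the run that holds 9 of the WT tumors r was 0.68 to 0.88.

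In tumors labelled PD-1cKO (n = 10) r was 0.33 to 0.65 with permutation p adjusted to 0.0768 to 0.346, and rho 0.37 to 0.61 with permutation p adjusted to 0.109 to 0.296. None was under 0.05. Without the 2 farthest tumors r was 0.14 to 0.56, and in the run of 7 such tumors it was 0.33 to 0.69. Tumors 4 and 8, lowest in Igtp, had Ifng at 1.55 and 2.94 FPKM, inside the range of the other tumors of the group. Whether the relation differs between WT tumors and those labelled PD-1cKO was not tested.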

How the data were processed

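RNA-seq values came from 46 samples in 1 table, grouped by their labels. According to the methods, the authors prepared stranded total RNA libraries with ribosomal depletion, read paired ends of 50 bases, aligned them to mouse build B38 with OSA in Omicsoft Array Studio 10.0.1.118 with at most 2 mismatches, and quantified Ensembl 86 genes. The deposited values are FPKM, scaled by the authors for transcript length and mapped fragments, and they keep no depth. How reads that match several genes were shared out is not given in the sources used here. Whether the tumors of a group came from separate mice is not stated sample by sample, so p-values measure the spread between these samples.

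The values entered as they stood, after log2(FPKM + 0.1). The test was limma 3.58.1 (R 4.3.3, eBayes with a trend) over all genes whose mean reached 0.5 FPKM in a compared group, with Benjamini-Hochberg adjustment over all of them, in 8 comparisons that each used the groups compared only. A gene was called at an adjusted p under 0.01 and at least 2-fold. Code was tested on simulated data. Coordinates came from GENCODE M21 (99.1% of identifiers matched) and promoters from RefSeq (8 of 9 genes matched). Named genes were the 9 members, up to 4 genes per list and comparison with the largest changes among those called, or as values where none was called, and the 10 genes most like the members. Of the genes this rule names, 1 is not reported here. Some further genes (Ptprc, Gapdh, Cd8a, Irf1, Gm4951, 9930111J21Rik2, Irgq and Pdcd1) were named after their values were seen. The members and lists were chosen with earlier results of these data known. Alternatives were another pseudocount, other filters, 2 scalings, 1 fit over all tumor groups, no fold limit, eBayes with no trend, the replicate number as a block, runs of identifiers as a covariate and leaving out each replicate. Python 3.11.15, numpy 2.4.6, pandas 2.3.3, scipy 1.17.1 and matplotlib 3.10.9 were used.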

Additional observations from a re-analysis of the deposited data

Results flagged for a closer look

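Iigp1 in PD-1 Ab tumor 4 of the 2-dose group, at 69.0 FPKM, stood apart from the other 4 tumors of its group (225 to 243 FPKM) by Dixon's test at its 95% critical value. It was the only such value among 54 tests of a gene in a group, of which chance alone marks about 1 in 20. The cause was not tested. The 2-dose antibody change exceeded the PD-1cKO change by 1.62 on the log2 scale for Irgm2 (limma interaction contrast, adjusted p = 0.0338) and by 2.02 for Gm12250 (adjusted p = 0.0458). Both values are under an adjusted p of 0.05 but not under the 0.01 used for calls. Over the alternatives other than leaving out a replicate, the adjusted p was 0.0206 to 0.0474 for Irgm2 and 0.0252 to 0.0684 for Gm12250. On leaving out 1 of the 30 tumors at a time it was 0.0116 (without PD-1cKO tumor 9) to 0.0931 (without isotype tumor 1) for Irgm2, and 0.0133 (without PD-1cKO tumor 9) to 0.115 (without PD-1 Ab tumor 3) for Gm12250. It was not under 0.05 in 10 of the 30 cases for Irgm2 and in 21 for Gm12250, while the log2 differences stayed within 1.42 to 1.82 and 1.85 to 2.22.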

How the results depend on the processing

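The number of IRGs called was the same in every comparison under every alternative, except that the second dose gave 8 or 9, with Iigp1 added in the fit over all tumor groups and without PD-1 Ab tumor 4 or isotype tumor 4. The sign of the PD-1cKO change depended on the setting for 5 genes. With the identifier runs as a covariate Irgm2 was at -0.16 and Igtp at -0.29. Without the 2 tumors of highest short noncoding share Tgtp1 was at 0.11, Gm12250 at 0.12 and Gm12185 at 0.31. On leaving out 1 tumor, Gm12185 ran from -0.37 to 0.069 (positive without PD-1cKO tumor 4 or, at 0.018, tumor 8) and Irgm2 from -0.016 (without tumor 9) to 0.21. The cause was not tested.

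Counts over all genes moved more. For the first dose, 0 genes became 2 with upper-quartile scaling, 10 in the fit over all tumor groups and 7 without isotype tumor 1 (range on leaving out a replicate 0 to 7). For the second dose, 799 became 450 with no filter, 1243 with no fold limit and 316 with the replicate block (375 to 1534 on leaving out a replicate, the highest without PD-1 Ab tumor 5 and the lowest without tumor 3). For PD-1cKO, 1217 became 617 with 1 FPKM added, 3217 with no fold limit, 0 with runs as a covariate and 453 without the 2 tumors (743 to 1871, the lowest without tumor 4 and the highest without tumor 9). For tumor against culture, 3231 became 5621 with no fold limit (2562 to 3364). For baseline, 89 became 135 with 1 FPKM added, 57 with no filter and 149 in the fit over all tumor groups (13 to 166, without baseline tumor 2 and isotype tumor 3). For isotype time, 0 became 28 in that fit (0 to 1). For the difference between models, 15 became 25 with 1 FPKM added, 28 with no filter, 9 with median-of-ratios scaling, 0 in the fit over all tumor groups and 7 without the 2 tumors (2 to 55, without PD-1 Ab tumors 3 and 5). For the difference between doses, 0 became 1 with no filter (0 to 0). The limma calls of 0 genes stand beside 895, 996 and 1182 genes at an unadjusted p under 0.05 for the first dose, isotype time and dose difference.

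Replicate numbers did not pair the tumors. Correlations of same-numbered tumors ran from -0.17 to 0.16 (first dose), -0.21 to 0.04 (second dose) and -0.19 to 0.11 (PD-1cKO), and the replicate block changed no IRG call. Since FPKM keeps no depth, counting error could not be given.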
